A study of Capra hircus with 6 samples.

Results

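The 10 genes described here encode the ERBB receptor family and ligands of the epidermal growth factor (EGF) family: the receptors *EGFR*, *ERBB2*, *ERBB3* and *ERBB4*, the neuregulin *NRG1*, and the EGF-like ligands *TGFA*, *HBEGF*, *AREG*, *EREG* and *BTC*. All rows of a deposited table of regions that differ in chromatin accessibility were taken, whatever their p-value, if their centre lay inside 1 of these genes or within 50000 bp of an end of it. This gave 44 of 30714 regions. The libraries came from mammary epithelial cells of the goat, 3 from the lactation period (replicates 1, 2 and 5) and 3 from the dry period (replicates 1, 2 and 3), when the gland makes no milk. No genotype, breed, age or treatment other than the period is given in the labels, and they do not tell whether replicates are separate animals, so the p-values may measure technical spread. The assay was ATAC-seq: the transposase Tn5 inserts into open DNA between nucleosomes, so that read density reports accessibility. For each region the table gives 1 fold change, 1 p-value and 1 FDR (false discovery rate) of the whole comparison and no value per library, so the spread between libraries and the depth of each are unknown.

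ERBB receptors are tyrosine kinases that form pairs when a ligand binds, and then signal through RAS and ERK, PI3 kinase and STAT proteins. EGFR binds TGF-alpha and amphiregulin, ERBB3 and ERBB4 bind neuregulins, and ERBB2 has no known ligand of its own and acts as the partner of the others. The ligands are made as membrane proteins and released by proteases. In the mouse mammary gland, amphiregulin acting on EGFR is needed for duct growth in puberty, and neuregulin 1 and ERBB4 act in alveolar development and milk secretion.

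Every fold change in the table lies above 1, and the names of the regions divide them into 2 sets, called set 1 and set 2. The sets were read as regions more open in one period and regions more open in the other. Neither the labels nor the table say which set is lactation and which the dry period, so each value below is given by set and no fold change has a known direction in time. All fold changes, p-values and FDRs of single regions are those of the authors' deposited table. A region counts as called when its FDR was under 0.05, which in these files corresponds to a p of at most 6.21e-05 in set 1 and 5.63e-06 in set 2. A set 2 region thus needed a smaller p to be called.

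The 44 regions split 33 to set 1 and 11 to set 2, which puts 25.0% in set 2 (14.6% to 39.4% by a 95% Wilson interval, for counting error only), against 25.5% of all 30714 listed regions. Of the 44, 17 were called (38.6%), against 27.8% of all listed regions. Within set 1, 15 of 33 were called, against 34.2% of listed set 1 regions, and within set 2, 2 of 11, against 9.23% of listed set 2 regions. At least 1 listed region lay at 8 of the 10 genes (80%), against 79.7% of 19063 protein-coding genes. A called set 1 region lay at 6 genes (60%), against 48.9% of protein-coding genes, and a called set 2 region at 2 genes, *EGFR* and *TGFA*, against 5.06%. Regions share genes and the genes were picked with earlier results of these data in view, so these shares are descriptions without a test.

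**Figure D1:**
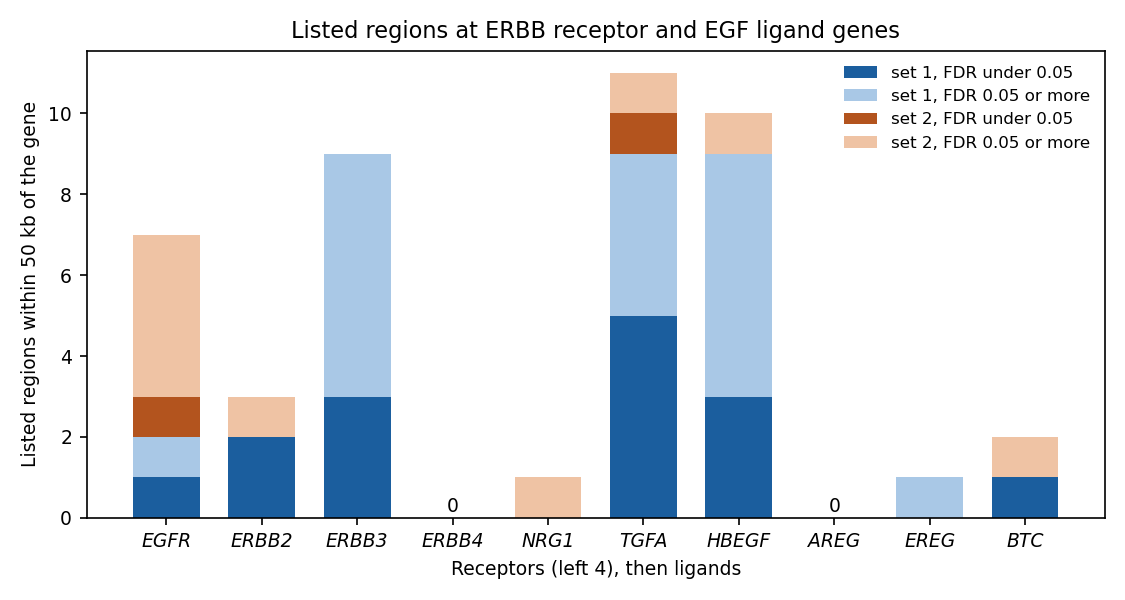
Number of listed regions within 50000 bp of each gene, stacked by set (blue, set 1; orange, set 2) and by FDR (dark, under 0.05; pale, 0.05 or more). *TGFA*, *HBEGF* and *ERBB3* hold 11, 10 and 9 regions, mostly in set 1, *EGFR* holds 7, of which 5 are in set 2, and *ERBB4* and *AREG* hold 0.

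*EGFR*, the receptor for most of the EGF-like ligands, was the only member with several listed regions for which set 2 held the larger number, at 5 of 7. The 1 called set 2 region lay inside the gene on chromosome 22 at 843401 to 843700, 74131 bp from the nearer end, with a fold change of 3.90 (the authors' deposited table, p = 3.41e-06, FDR = 0.0359). Around it, 2 more set 2 regions lay 88131 and 89781 bp inside the gene, with fold changes of 3.93 (FDR = 0.665) and 2.78 (p = 2.72e-05, FDR = 0.134) in the authors' deposited table. One more lay 78324 bp from the other end, at a fold change of 2.54 (FDR = 0.844) in the authors' deposited table. The last set 2 region lay outside, 49419 bp from the end, on chromosome 22 at 719701 to 720300, with a fold change of 3.62 (FDR = 0.101). The set 1 regions of *EGFR* were also inside the gene. The called one, 35374 bp from the end at 946401 to 947100, was 700 bp wide, the widest of the 44, and had a fold change of 2.02 (the authors' deposited table, FDR = 0.0101). The other had 2.72 (FDR = 0.231).

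All 7 *EGFR* regions had *EGFR* as their nearest gene, since no other protein-coding gene lay within 50000 bp of it. None lay within 3000 bp of an end of the gene. In the rest of the 1000000 bp on either side of the gene, 4 of 16 listed regions were in set 2 (25.0%), as were 26.9% of the 855 on chromosome 22. The lower side was shorter than 1000000 bp, because the chromosome begins within that distance. Of 6322 protein-coding genes with at least 5 listed regions, 161 (2.55%), *EGFR* among them, had a set 2 share at least as high. Position moved with set over the whole table: among 2887 listed regions that lay more than 50000 bp inside a gene, 45.4% were in set 2 (interval 43.6% to 47.3%). *EGFR* had 5 regions so placed, with 4 in set 2. Of these 2887 regions, 23.2% were called in either set. With 1 limit for both sets, an unadjusted p under 1e-05, the count at *EGFR* stayed at 2, and 17.0% of all listed regions passed. With a looser common limit of 5e-05, chosen after the data were seen, 4 *EGFR* regions passed, 3 of them in set 2, and 29.1% of all listed regions passed. At an FDR under 0.01, 0 *EGFR* regions passed.

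Markers of other cell types also had listed set 2 regions. Near 5 basal and myoepithelial marker genes, 13 of 23 listed regions were in set 2 (56.5%), against 4 of 54 near 8 luminal marker genes (7.41%). The basal set 2 regions lay mostly at *MYLK* (6 of 7 listed) and *TP63* (6 of 8), while *KRT5* and *ACTA2* had 0 of 3 each, and all 4 called basal regions were in set 1. For endothelial genes 7 of 18 were in set 2 (38.9%), for immune genes 3 of 15 (20.0%), for adipocyte genes 2 of 9 (22.2%) and for fibroblast genes 2 of 12 (16.7%). The endothelial set 2 regions lay at *VWF* (2 of 4 listed), *KDR* (1 of 1), *TEK* (2 of 2) and *CDH5* (2 of 3), while *PECAM1* had 0 of 8. Set 2 held 4 of 10 called regions for the endothelial, 2 of 4 for the immune and 1 of 3 for the adipocyte list. It held 0 of 4 for the basal, 0 of 19 for the luminal and 0 of 2 for the fibroblast list. Over the whole table, 25.5% of listed regions and 723 of 8543 called regions were in set 2. A table of differing regions does not measure how many cells of each type a library held, and the part of cell makeup in the *EGFR* regions was not tested.

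*ERBB3*, the receptor that binds neuregulins but has little kinase activity of its own, had 9 listed regions, all in set 1, of which 3 were called. The strongest lay outside the gene, 15309 bp from its end, on chromosome 5 at 56628201 to 56628800, with a fold change of 2.90 (the authors' deposited table, p = 1.91e-07, FDR = 0.000900). The next called region, 17959 bp from that end at 56631001 to 56631300, had a fold change of 3.28 (FDR = 0.0488), just inside the FDR limit. Both had *ERBB3* as the nearest gene. The third called region, on the other side of the gene at 56581101 to 56581400, had a fold change of 2.45 (FDR = 0.00213) in the authors' deposited table, but its nearest gene end was that of *ZC3H10*, 1290 bp away. Only 1 region lay inside *ERBB3*, at 56607701 to 56607900, with a fold change of 1.64 (FDR = 0.146).

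The window of *ERBB3* was crowded, with 5 other protein-coding genes in it, and 3 of its 9 regions had *ERBB3* as their own or nearest gene. The region closest to an end of *ERBB3*, 1246 bp away at 56590501 to 56590700, lay inside *PA2G4*, the gene for a protein known to bind ERBB3, 297 bp from an end of *PA2G4*. Its fold change was 1.68 (the authors' deposited table, FDR = 0.264). The highest fold change of the receptor genes, 7.34, belonged to a region inside *ZC3H10*, but with an FDR of 0.213. The remaining regions had fold changes of 1.59 inside *ESYT1*, 1.43 inside *ZC3H10* and 3.55 nearest to *RPS26*, with FDRs of 0.117, 0.101 and 0.198 in the authors' deposited table. In the rest of the 1000000 bp on either side, 3 of 53 listed regions were in set 2 (5.66%), so set 1 prevailed around the gene too.

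*ERBB2*, the partner receptor, had 3 listed regions, and none of them lay inside the gene or had it as the nearest gene. The set 1 region with the smaller p lay 23436 bp from *ERBB2* on chromosome 19 at 39760701 to 39761000, between *GRB7* and *IKZF3*, 3305 bp from an end of *IKZF3*, a gene for a lymphoid transcription factor. It had a fold change of 1.63 (the authors' deposited table, p = 1.73e-06, FDR = 0.00433). The same region was the only listed one within 50000 bp of *GRB7*, which encodes an adaptor that binds ERBB2, at a distance of 7408 bp. The other called region, at 39689001 to 39689300, lay inside *PGAP3*, 292 bp from an end, with a fold change of 2.54 (FDR = 0.0379). The set 2 region, inside *STARD3*, had a fold change of 2.86 (p = 0.000712, FDR = 0.742) in the authors' deposited table. The surroundings held many listed regions, 91 in the rest of the 1000000 bp on either side, of which 7 were in set 2 (7.69%).

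*ERBB4*, the neuregulin receptor that signals to STAT5 in the mouse gland, had no listed region in a window of 1397 kb. *ERBB4* is a very long gene, of 1297 kb. Of 51 protein-coding genes longer than 1000000 bp, 12 (23.5%), *ERBB4* among them, had no listed region, and the median of the 51 was 2 regions (range 0 to 22). *NRG1*, which encodes ligands of ERBB3 and ERBB4, had no listed region inside its 236 kb. Its 1 region lay 8246 bp outside on chromosome 27 at 16978101 to 16978300 and belonged to set 2, at a fold change of 4.31 (the authors' deposited table, p = 0.000497, FDR = 0.635). Among 468 genes of 200 to 300 kb, the class that also holds *EGFR*, 126 (26.9%), *NRG1* among them, had 1 listed region or none. In this class 31 genes (6.62%), *EGFR* among them, had 5 or more set 2 regions. The table holds only regions with a p under 0.001, so it does not tell whether a gene without one was accessible throughout or not at all.

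**Figure D2:**
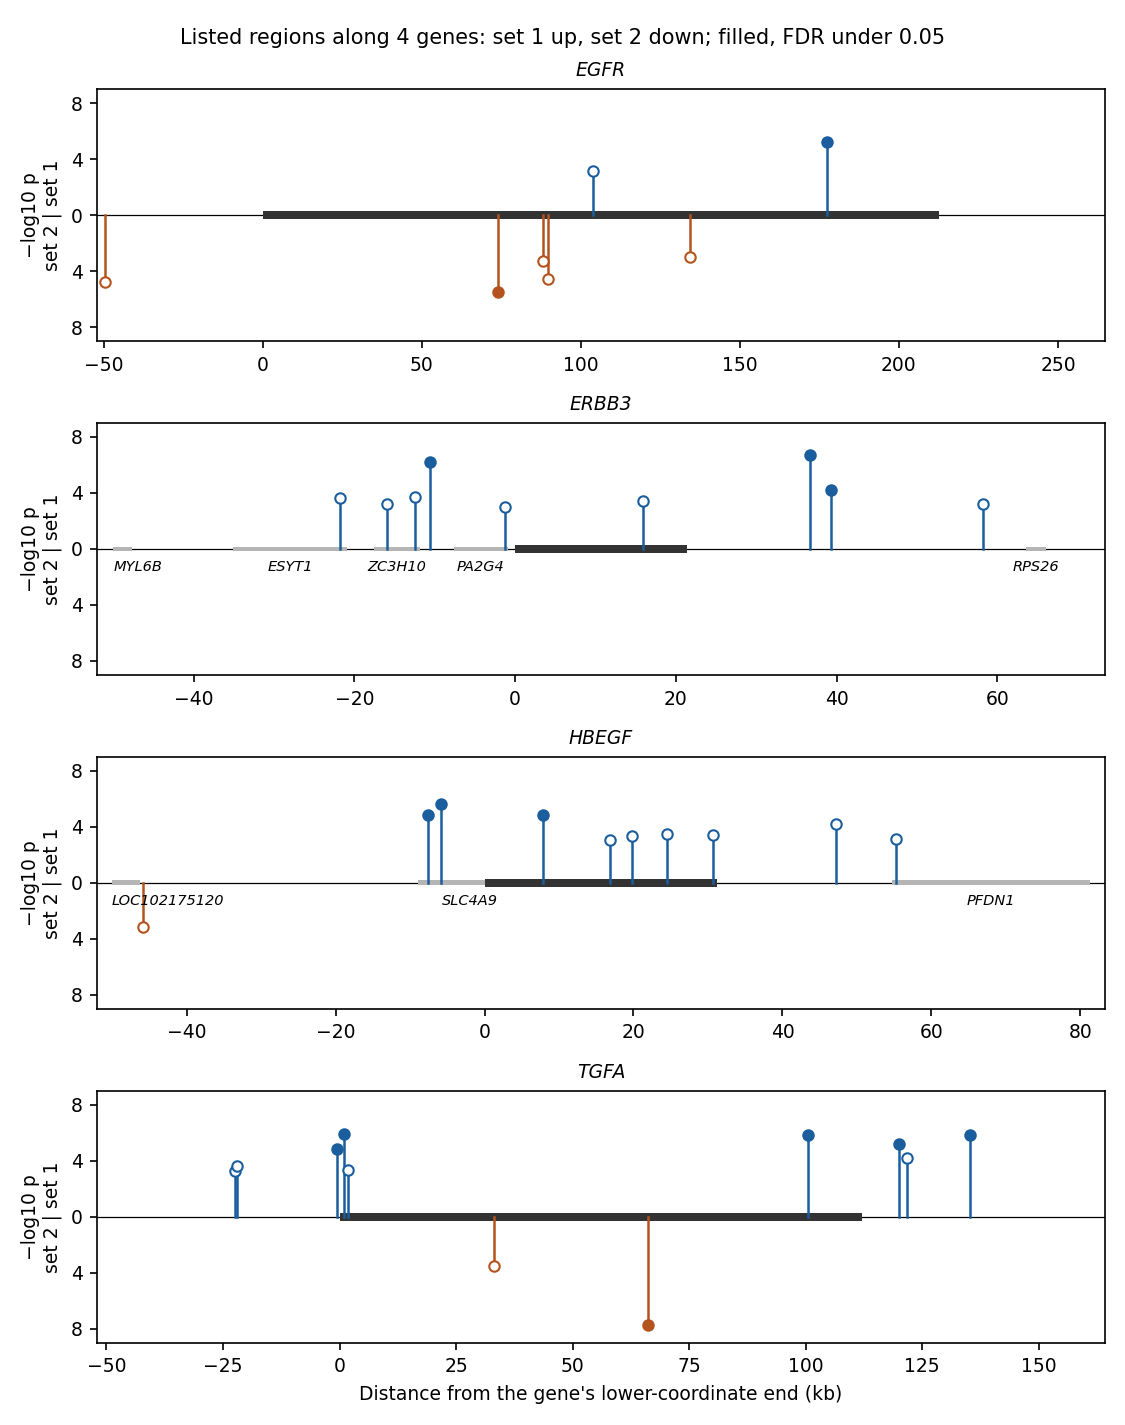
Listed regions along *EGFR*, *ERBB3*, *HBEGF* and *TGFA*, by the distance of their centre from the gene's lower-coordinate end in kb, with the −log10 of the authors' p upward for set 1 (blue) and downward for set 2 (orange). Filled points have an FDR under 0.05, the black bar is the named gene and grey bars are other protein-coding genes. The set 2 regions of *EGFR* and *TGFA* sit mostly well inside the gene, while the 9 regions of *ERBB3* are all in set 1.

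*TGFA*, the gene for transforming growth factor alpha, had the most listed and the most called regions, 11 and 6. Within the window, the regions of the sets lay in different places. The 2 set 2 regions lay in the middle of the gene. The called one, on chromosome 11 at 13803201 to 13803700 and 46087 bp from the nearer end, had a fold change of 2.63 (the authors' deposited table, p = 1.83e-08, FDR = 0.000887). This was the smallest p of the 44 regions and rank 133 of 7830 set 2 regions. The other, 33115 bp from an end, had a fold change of 2.97 (FDR = 0.504). Past the window, uncalled set 2 regions also lay outside *TGFA*, 57013 and 79985 bp from it.

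The 9 set 1 regions of *TGFA* lay toward and beyond the ends of the gene. At the lower-coordinate end, 3 regions stood within 2 kb of it. The first lay 585 bp outside the gene at 13736701 to 13736900, with a fold change of 2.09 (the authors' deposited table, FDR = 0.0184). The second lay 965 bp inside at 13738201 to 13738500, with a fold change of 1.96 (FDR = 0.00335). The third, 1715 bp inside at 13739001 to 13739200, had 1.99 (FDR = 0.176). The fold changes of these 3 neighbours were thus alike, and 2 of the 3 were called.

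Near the other end of *TGFA* lay the remaining called regions. The region 11637 bp inside that end, at 13837701 to 13838100, had a fold change of 1.85 (the authors' deposited table, FDR = 0.00405). Outside the gene, the regions at 13857101 to 13857500 and 13872501 to 13872900 had fold changes of 3.52 (FDR = 0.0106) and 3.33 (FDR = 0.00399), larger than those at the lower end. Between them stood a region with a fold change of 3.74 that missed the limit, at an FDR of 0.0503. The highest fold change of all 44 regions, 8.15, belonged to a region 200 bp wide and 22385 bp beyond the lower end, with an FDR of 0.197. It stood next to another of fold change 4.21 (FDR = 0.118) in the authors' deposited table. No other protein-coding gene lay within 50000 bp of *TGFA*.

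*HBEGF*, the gene for heparin-binding EGF-like growth factor, which binds EGFR and ERBB4, had 10 listed regions, of which 9 were in set 1. The called ones were all in set 1 and lay at 1 side of the gene. On chromosome 7, the region at 58943701 to 58944000, inside *HBEGF* and 7835 bp from its lower-coordinate end, had a fold change of 2.91 (the authors' deposited table, FDR = 0.0179). The gene end nearest to this region was that of *SLC4A9*, 2841 bp away. The 2 others lay outside *HBEGF*, 5865 and 7565 bp from its lower-coordinate end, and inside *SLC4A9*, a gene for an anion exchanger family member. They had fold changes of 2.15 (p = 2.22e-06, FDR = 0.00519) and 1.97 (FDR = 0.0190) in the authors' deposited table, at 58929901 to 58930400 and 58928201 to 58928700.

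Further into *HBEGF* followed 4 set 1 regions, with fold changes of 2.92, 1.95, 2.32 and 2.35 and FDRs of 0.241, 0.168, 0.138 and 0.157 in the authors' deposited table. The last of these, at 58966601 to 58966800, lay 577 bp from the upper end. None of these 4 was called, and their fold changes lay within the interquartile range of all listed set 1 regions (1.87 to 3.23). A region beyond the upper end, at 58983001 to 58983400, came close to the limit with a fold change of 1.94 (FDR = 0.0519). The 1 inside *PFDN1* had 1.76 (FDR = 0.226) in the authors' deposited table. The set 2 region, 45815 bp from *HBEGF* and 453 bp from the end of another gene, had a fold change of 1.35 (FDR = 0.747), the lowest of the 44.

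The 3 ligand genes on chromosome 6 had few regions. *BTC*, which encodes betacellulin, a ligand of EGFR and ERBB4, had a called set 1 region inside the gene at 90230601 to 90230800, with a fold change of 3.01 (the authors' deposited table, p = 1.71e-05, FDR = 0.0213). Its set 2 region, 47575 bp outside at 90310401 to 90310600, had a fold change of 7.34, with an FDR of 0.795. *EREG*, the gene for epiregulin, had 1 region, in set 1 and 717 bp inside an end at 89834101 to 89834700, with a fold change of 1.57 (FDR = 0.0831), which missed the limit. *AREG*, the gene for amphiregulin, had none. The region of *EREG* was also the closest listed one to *AREG*, 75773 bp away. In the rest of the 1000000 bp on either side of *AREG* there were 44 listed regions, 5 of them in set 2 (11.4%).

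**Figure D3:**
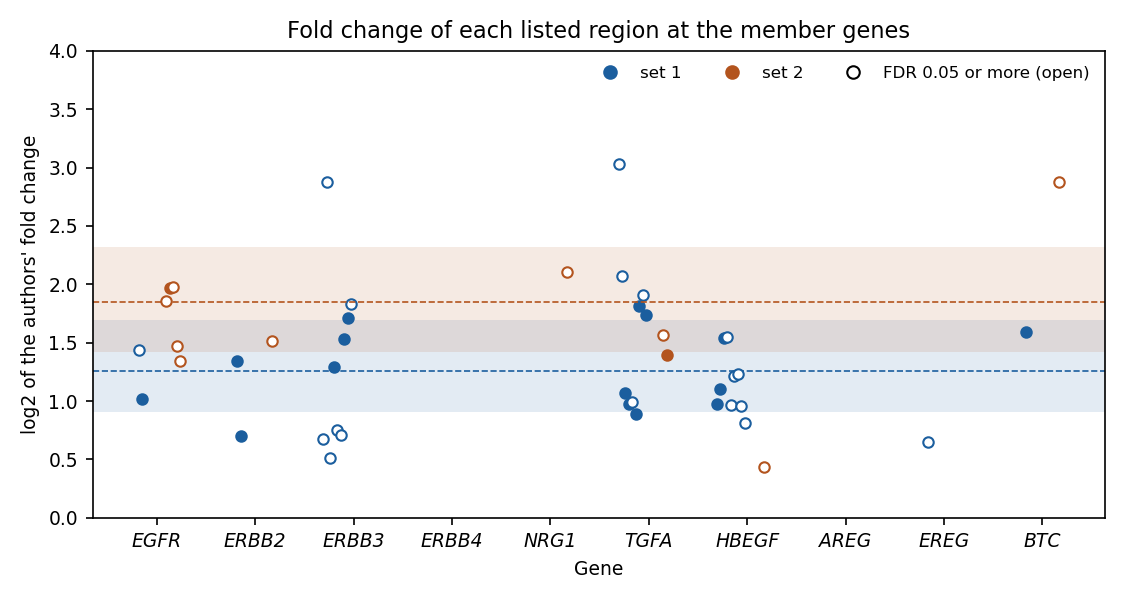
Fold change of each of the 44 listed regions on a log2 scale, by gene (blue, set 1; orange, set 2; filled, FDR under 0.05; open, 0.05 or more). Dashed lines and shaded bands are the median and the interquartile range over all listed regions of the set of the same colour. Most points of both sets lie inside or below their band, and the 3 points near or above 2.88 on the log2 scale, at *ERBB3*, *TGFA* and *BTC*, are open.

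Fold changes at these genes lay near those of the whole table in set 1 and below the overall median in set 2. The median was 2.32 over the 33 set 1 regions (interquartile range 1.94 to 3.01), against 2.39 over all listed set 1 regions (1.87 to 3.23). Over the 11 set 2 regions it was 2.97 (2.70 to 3.92), against 3.59 over all listed set 2 regions (2.67 to 4.98). The 5 regions with a fold change of 4 or more were 200 or 300 bp wide, and none was called. The regions of these genes were 200 to 700 bp wide, with a median of 300 bp in set 1 and 200 bp in set 2, the medians of all listed regions of each set.

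Of the 44 regions, 19 lay inside a member gene, 6 of them in set 2, and 25 outside. In 30 the member was the only gene they lay in or the gene with the nearest end. A further 9 lay inside another protein-coding gene, at *ERBB2*, *ERBB3* and *HBEGF* only. Within 3000 bp of an end of the member lay 6 regions, at *TGFA*, *ERBB3*, *EREG* and *HBEGF*, and all 6 were in set 1. Counting ends of any protein-coding gene there were 16 (36.4%), against 29.9% of listed regions on the numbered chromosomes. Of these 16, 14 were in set 1 (87.5%), against 89.2% of all listed regions so placed (interval 88.6% to 89.9%). At the edge of the window, the farthest regions taken in lay 49419 bp from *EGFR* and 47575 bp from *BTC*, both in set 2. The nearest left out lay 54146 bp from *ERBB3*, in set 1 with a fold change of 2.09 (FDR = 0.00387), and 57013 bp from *TGFA*, in set 2 with a fold change of 9.45 (FDR = 0.231) in the authors' deposited table.

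**Figure D4:**
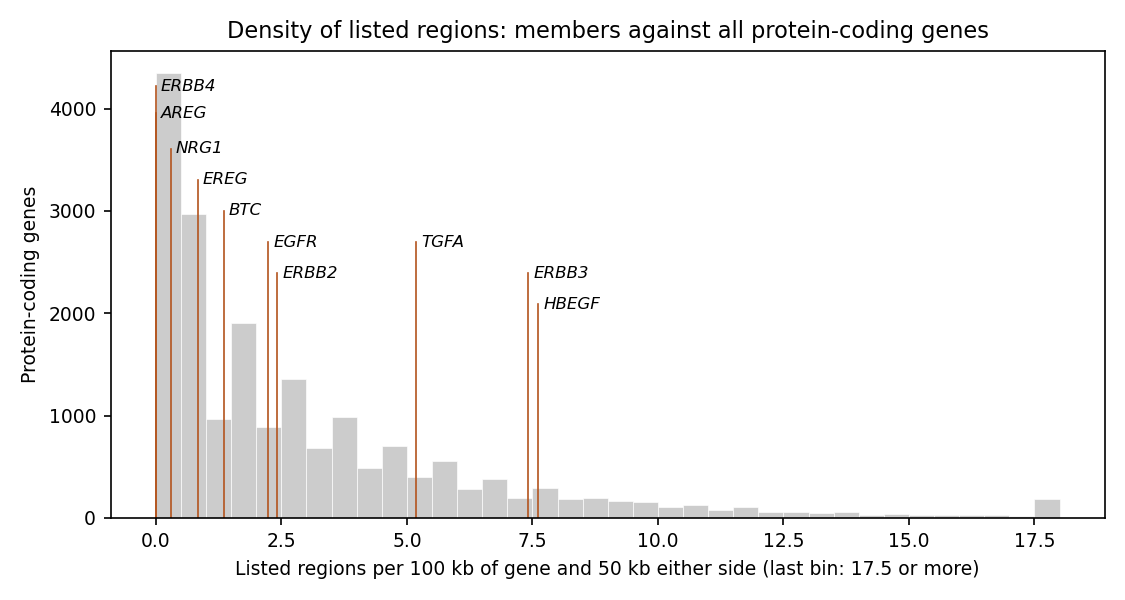
Listed regions per 100 kb of gene with 50 kb on either side, as a histogram over 19063 protein-coding genes, with the 10 members marked by lines. *HBEGF* (7.62), *ERBB3* (7.42) and *TGFA* (5.18) lie in the upper part of the distribution, and *ERBB4*, *AREG* and *NRG1* at its lower end.

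Per 100 kb of window, *HBEGF* had 7.62 listed regions, *ERBB3* 7.42 and *TGFA* 5.18, more than 90.0%, 89.4% and 80.8% of protein-coding genes, whose median was 1.87 (interquartile range 0.642 to 4.22). *ERBB2* (2.41) and *EGFR* (2.24) lay just above that median, and *BTC* (1.35), *EREG* (0.834) and *NRG1* (0.297) below it. Over the 10 members the median was 1.80. By density alone, and apart from genes with no assigned symbol, the genes nearest to *HBEGF* were *PCNX3*, *C28H10orf54*, *MRPL27*, *MRPL52* and *SLC45A4*, and those nearest to *ERBB3* were *CD74*, *ACP6*, *RASSF5*, *TMEM70* and *NEFH*. *C28H10orf54* had 8 of its 10 regions in set 2, against 1 of 10 for *HBEGF*, so a like density did not mean a like split.

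The wider pathway was covered by 7 lists of 104 genes in all, of which 99 matched a gene on a numbered chromosome. A listed region lay at 92 of the 99 (92.9%, against 79.7% of protein-coding genes), a called region of either set at 67 (67.7%, against 51.4%), a called set 1 region at 63 (63.6%, against 48.9%) and a called set 2 region at 8 (8.08%, against 5.06%). Long genes have wide windows and no allowance was made for length, and the difference from the other genes was not tested. A region counted at a gene lay inside it or up to 50000 bp outside, and another gene may lie nearer. Of the leading regions named below, the farthest outside lay 41369 bp from its gene, *CRKL*. Other ligands were few: 2 of 5 had a called region, *NRG2* with 4 listed regions, all in set 2, and *NRG4* with 9, of which 2 were in set 2. The called *NRG2* region (chromosome 7, 59504201 to 59504600) stood at a fold change of 2.83 (the authors' deposited table, FDR = 0.00414), and the strongest of *NRG4* had 2.82 (FDR = 0.00290). *EGF* itself had 1 listed region, in set 2 and not called (fold change 3.80, FDR = 0.627).

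Among 10 genes that process the ligands, 6 had a called region, against 51.4% of protein-coding genes. *ADAM17*, which encodes the protease that releases TGF-alpha and amphiregulin in the mouse, had its strongest region inside the gene and in set 2, on chromosome 11 at 87536401 to 87537100, with a fold change of 2.52 (the authors' deposited table, FDR = 0.00191). This was the only set 2 region among the 8 listed and 3 called regions of *ADAM17*, and the rest were in set 1. *RHBDF1*, the gene for an inactive rhomboid protein that serves ADAM17, was also led by a set 2 region (2.67, FDR = 0.00678), and its partner gene *RHBDF2* by a set 1 region (2.15, FDR = 0.00197). These regions lay 37344 bp outside *RHBDF1* and 32247 bp outside *RHBDF2*. Set 2 held 1 of 3 listed regions at *RHBDF1* and 0 of 7 at *RHBDF2*. *ADAM12* was led by a set 1 region (2.53, FDR = 5.15e-05).

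Called regions lay at 18 of 25 genes for adaptors and kinases at the receptor, 17 of them with a set 1 region, where 51.4% of protein-coding genes had one of either set. The exception was *VAV3*, a guanine nucleotide exchange factor, with 5 of 6 listed regions in set 2 and a fold change of 3.43 at the strongest (the authors' deposited table, chromosome 3, 84896501 to 84897100, FDR = 1.11e-05). *YES1* (1.98), *CRKL* (1.80) and *VAV2* (2.16) were led by set 1 regions. In the RAS and ERK branch 9 of 16 genes had a called region, led by set 1 regions of *ETS1* (2.19), *MAP2K2* (2.36), *RRAS2* (3.30) and *MYC* (1.51) in the authors' deposited table. *ELK3*, an ETS factor, was led by a set 2 region inside the gene (3.77, FDR = 0.0349), with 5 of 7 listed and 1 of 3 called regions in set 2. In the PI3 kinase branch 9 of 12 genes had a called region, among them set 1 regions outside *MTOR* (3.46), *PIK3R3* (3.56) and *PIK3R2* (1.62). Both matched genes of the STAT5 branch, *JAK2* (2.08) and *STAT5B* (3.96), had a called set 1 region inside the gene.

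Of 29 genes that inhibit or turn over the receptors, 21 had a called region (51.4% of protein-coding genes did), 20 genes a set 1 region and 2 genes a set 2 region. *DUSP6*, the ERK phosphatase that is induced by ERK signalling, had 9 listed regions, all in set 1 and 6 of them called, with a fold change of 1.62 at the strongest (the authors' deposited table, chromosome 5, 18989101 to 18989700, FDR = 4.39e-09). *LRIG2*, of the LRIG family of receptor regulators, followed with a fold change of 1.99 (FDR = 5.5e-08), then *HGS*, which sorts receptors to lysosomes (1.48, FDR = 1.04e-06), and the phosphatase *PTPN1* (1.79, FDR = 5.51e-06). *NEDD4*, a ubiquitin ligase, was led by a set 2 region 23148 bp outside the gene (2.71, FDR = 0.0250) in the authors' deposited table. It was the only set 2 region among the 6 listed at *NEDD4*, and the only called one.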

How the data were processed

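Per the labels' protocols, each ATAC-seq library came from 50,000 cells and the Nextera Tn5 kit and was read on a BGISEQ-500. Bowtie2 2.2.5 and MACS2 are named, without a role, in the submitters' processing notes. How the comparison was computed, on which build, and how Tn5 offsets and duplicates were handled were not given in the sources used here. The authors deposited 1 table of regions. Its fold change is a linear ratio, its p-value and Benjamini-Hochberg FDR (a q-value) are the authors', its length column is in bp (another unit), and its signal value is a score that was not used. All p lie under 0.001.

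Gene names and positions came from a RefSeq table of the assembly ARS1.2, without strand or sequence. Sequences in the file were matched to chromosomes by their regions' nearness to gene ends within 1000 bp, for 29 of 29 chromosomes. Start positions were raised by 1, to count from 1. Counting used Python 3.11.15 with pandas 2.3.3 and scipy 1.17.1 and was tested on simulated regions at 200 genes. Shares carry 95% Wilson intervals. The members, lists and tests were chosen with earlier results of these data known. All members are named with their called regions, the nearest to an end and those of smallest p. Per pathway list, up to 4 genes with the smallest p and every gene led by a called set 2 region are named, except 1 gene that is not reported here. No test across libraries could be run, because there is no value per library, and depth is unknown. No sequences are shown and the planned motif search was not run, as no genome was used here.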

Additional observations from a re-analysis of the deposited data

How the results depend on the processing

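The number of regions near these genes was set mainly by the window: 44 with 50000 bp, 26 with 10000 bp and 67 with 100000 bp. Any overlap in place of the centre left 44. The count of called regions was 17 as reported, 11 with 10000 bp, 8 at an FDR under 0.01 and 11 with 1 limit for both sets (unadjusted p under 1e-05), which 17.0% of all listed regions passed. It was 20 at an FDR under 0.1 and 24 with 100000 bp. With only regions whose own or nearest gene is a member, a choice made after the data were seen, 30 regions and 12 called ones were left. The set 2 share was 25.0% as reported, 11.8% among called regions, 40.0% among the 5 with a fold change of at least 4, and 16.2% without *EGFR*, a setting also added after the data were seen, so that gene holds much of set 2. With the other windows, or without *TGFA*, it was 19.4% to 27.3%. Over the whole table, set 2 held 723 of 8543 called regions and had the higher median fold change (3.59 against 2.39 in set 1). The median fold change near the member genes was 2.58 as reported and 2.44 to 2.63 under the alternatives. Of 90 alternative counts for single genes, 71 stayed within 1.5 times the reported count. The other 19 moved. Many of the 71 were 0 under both settings: every count at *ERBB4*, every called count at *AREG* and *NRG1*, and most called counts at *EREG*. Those say little about stability. With 10000 bp, *ERBB3* went from 9 listed and 3 called regions to 2 and 0. *ERBB2* went from 3 listed and 2 called regions to 0 and 0, so both genes depended on the window. No paired analysis was possible because the table holds no value per library, and for the same reason single libraries could not be left out. Depth per region is unknown, so a gene without listed regions cannot be told from one with too few reads.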
